A study of Homo sapiens with 18 samples.

Results

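The complement and coagulation genes were taken as the rows of the deposited gene table whose pathway annotation names the complement and coagulation cascades, without the genes whose symbols begin with SERPIN or ITG. This left 66 of 50119 genes, since 8 SERPIN and 3 ITG genes were removed from the 77 that carried the term. No expression value entered this rule, but the study had already named this pathway among those enriched in its differentially expressed genes from these data. Their RNA levels were followed in Saos-2, an established human osteosarcoma cell line that the sample records spell Soas-2, grown in 6 ways with 3 libraries each and recorded as WT throughout. D-2 was the flat 2D culture, D-3 was the 3D culture of cells in Matrigel, a basement membrane gel, and DP-3 was 3D cell-printed tissue made with a bioink of methacrylated gelatin and alginate. DP-3 was sampled on day 1 (DP-3 day 1) and, like the other cultures, on day 14 (DP-3). FIT was the fresh tumor that grew under the skin of female BALB/c nude mice, 4 weeks old when implanted, and was not cultured, and IT was tissue cut from such tumors and cultured on Matrigel for 14 days. The records give the cultures as grown in vitro and FIT as grown in vivo. FIT and IT pieces can hold cells of the mouse host, and the sources used here do not state whether mouse reads were separated. Per the paper, part of an excised tumor was cultured and the rest was taken fresh, so IT and FIT libraries may share animals. The records do not say which animal or culture a library came from, so IT and FIT were tested without pairing. P-values measure the spread between these libraries, which may be technical in part.

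Complement is a chain of serum proteases and binding proteins. Recognition proteins such as C1q and the lectin MBL activate early proteases, C3 is cleaved onto surfaces, factor B amplifies this step, and the terminal components assemble a pore, while membrane regulators such as CD46, CD55 and CD59 shield the cell's own surface. Coagulation is a related protease chain that starts with tissue factor and ends with thrombin and fibrin, and the plasminogen activators turn on its dissolution. The liver makes most of the circulating proteins, but many other cells make single components, and tumor cells are well known for tissue factor, urokinase and the thrombin receptors.

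The libraries held 23721666 to 79082786 estimated counts. FIT replicate 3 was the shallowest, and the other 17 held at least 50327345. The DP-3 day 1 libraries stood apart in breadth, with 34591 to 34919 genes above 0 against 22915 to 29630 in the other groups, and with 56 to 59 of the 66 pathway genes above 0 against 39 to 48. Among the osteoblast lineage genes, SPARC, COL1A1 and COL1A2 had mean levels of at least 1 FPKM (sequenced fragments scaled to transcript length and library size, the unit of all levels below) in every group, while ALPL, IBSP and SP7 stayed below 0.1. The line is named as the records give it, and its identity was not tested from these levels. Of 9 macrophage genes, CD68 carried most of the summed level, which was 20.1 to 117 FPKM per library, while TYROBP was at 0 in every library of each group but DP-3 day 1. Of 6 hepatocyte genes, ALB and TTR were at 0 in every library outside DP-3 day 1, while SERPINA1 had a mean of 1.14 FPKM in D-3. The red blood cell list summed to at most 0.844 FPKM and the 3 measured of 5 platelet genes to at most 1.92, while the endothelial list, carried by TIE1, summed to 26.3 to 52.6.

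Both cell-surface members, such as CD59, F2R and PROCR, and secreted ones, such as C1R, CFB, CLU and PLAU, were among the expressed genes. Of the 66 genes, 25 had a mean of at least 1 FPKM in at least 1 group, 16 reached 0.1 but not 1, and 25 stayed below 0.1 in every group. The 25 expressed genes were 4 of 11 complement regulators, 3 of 11 recognition proteins and early proteases, 2 of 3 genes of C3 and the alternative pathway, 1 of 7 terminal components and 1 of 3 complement receptors. On the clotting side they were 4 of 14 clotting factors, both thrombin receptors, 3 of 7 anticoagulants and inhibitors, 3 of 4 fibrinolysis genes and 2 of 4 kallikrein-kinin genes. Among the 25 genes under 0.1 were F2 (prothrombin), F5, F7, F9, F10 and F11, plasminogen (PLG), protein C (PROC), thrombomodulin (THBD), MBL2, the pore components C6, C8A, C8B and C9, and kininogen (KNG1).

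**Figure D1:**
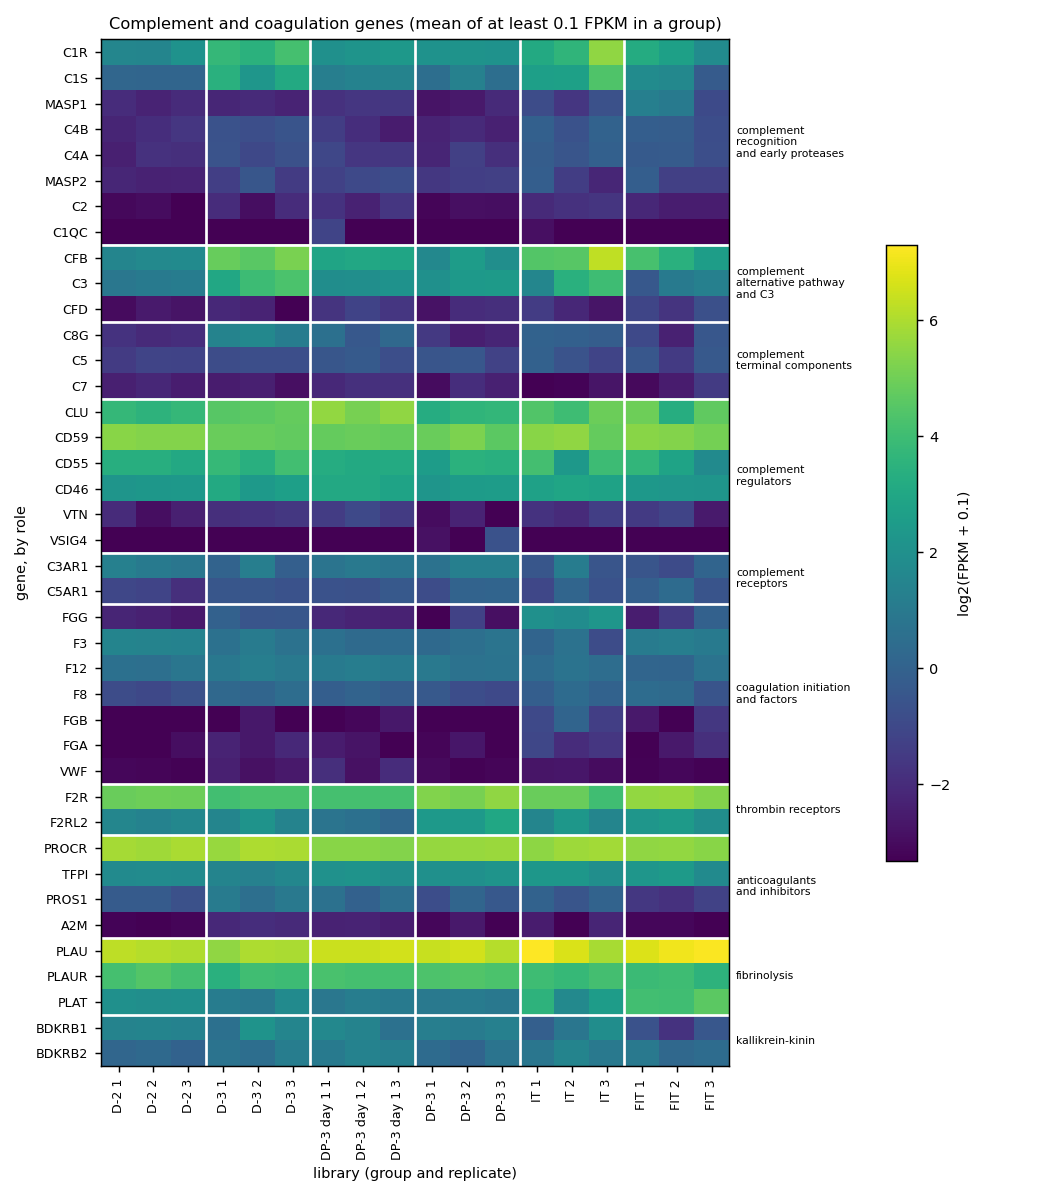
Levels of 40 of the 41 complement and coagulation genes with a mean of at least 0.1 FPKM in a group, one row per gene ordered by role and one column per library, coloured by log2(FPKM + 0.1). PLAU, PROCR, F2R and CD59 are bright in all 18 libraries, CFB, C1R, C1S and C3 are bright in D-3 and IT and dimmer in D-2, and most clotting factors are dark throughout.

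The summed level of the 66 genes was 367 to 379 FPKM in FIT, 363 to 422 in IT, 290 to 302 in DP-3 day 1, 276 to 308 in DP-3, 273 to 283 in D-2 and 285 to 343 in D-3. A few genes carried most of it. Urokinase (PLAU), the protease that activates plasminogen at the cell surface, had group means between 56.8 ± 9.07 FPKM (SD, n = 3) in D-3 and 129 ± 21.8 in FIT. The endothelial protein C receptor (PROCR), an anticoagulant receptor, lay between 41.4 ± 1.53 in DP-3 day 1 and 58.4 ± 6.75 in D-3. CD59, which blocks pore assembly, lay between 27.9 ± 0.752 in DP-3 day 1 and 40.6 ± 1.91 in D-2, the thrombin receptor F2R between 17.9 ± 0.258 and 45.9 ± 4.83, and clusterin (CLU), a secreted chaperone that also binds the pore complex, between 11.6 ± 1.97 in DP-3 and 43.2 ± 7.09 in DP-3 day 1. The order of neighbouring group means within these genes often lay inside the spread of the libraries, as for PROCR, where D-2 (58.2 ± 2.82) and D-3 differed by less than 1 SD.

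The 7 comparisons were made with edgeR's quasi-likelihood test on the estimated counts, each on its own 6 libraries. The 4 comparisons of a culture with the fresh tumor follow the study's question of how far each culture departs from the tumor, and they share the same 3 FIT libraries. The others set day 14 of printed tissue against day 1, and each matrix culture against the flat culture. A gene was called at a Benjamini-Hochberg adjusted p below 0.05 over all genes tested and a fold change of at least 2. Since expression was measured in whole samples, fewer cells expressing a gene and less RNA per cell cannot be told apart in any of these results. By the methods D-2, D-3 and DP-3 were set up from Saos-2 cells alone, so other cell types concern only FIT and IT.

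Between 29 and 35 of the 66 genes had enough signal to be tested in a comparison, and 21 were called at least once. The share of all genes called at least once over the 7 comparisons was not computed, so that count has no background beside it. In D-2 against FIT 10 of 32 were called, where 14.6% of all genes tested were called, and 3 were higher and 7 lower in D-2 (3.83% and 10.8% of all genes). In D-3 against FIT 9 of 35 were called against 6.45% of all genes, 5 higher and 4 lower (4.29% and 2.17%). DP-3 against FIT gave 6 of 32 against 4.82%, 3 in each direction (1.66% higher and 3.16% lower among all genes). In IT against FIT none of 35 genes was called by edgeR, which called 0% of all genes there. Printed tissue on day 14 against day 1 gave 4 of 33 against 7.56%, 2 in each direction (1.81% higher and 5.76% lower among all genes). D-3 against D-2 gave 12 of 32 against 18.5%, and all 12 were higher in D-3, where 14.6% of all genes were called higher and 3.95% lower. DP-3 against D-2 gave 3 of 29 against 1.04%, 2 higher and 1 lower (0.722% and 0.318%). The share in DP-3 against DP-3 day 1 was the nearest to its background among the comparisons with a call. CFD in D-2 against FIT and A2M in D-3 against FIT and against D-2 had reached the minimum of 0.1 FPKM for testing only in the group where they were higher, so their calls rest on the choice of tested genes and are given below as levels only. Without them the counts were 9, 8 and 11 in these comparisons, with 19 distinct genes in all, while the shares of all genes still hold genes of this kind.

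The median log2 fold change of the tested pathway genes was -0.60 in D-2 against FIT (-0.09 over all genes), 0.14 in D-3 against FIT (0.02), -0.30 in DP-3 against FIT (-0.06) and 0.20 in IT against FIT (0.01). It was 0.04 in DP-3 against DP-3 day 1 (-0.06 over all genes), 0.39 in D-3 against D-2 (0.11) and 0.12 in DP-3 against D-2 (0.03). The libraries of the groups did not overlap for 18 of 32 genes in D-2 against FIT, where this held for 49.9% of all genes, for 18 of 35 in D-3 against FIT (32.4%), 14 of 32 in DP-3 against FIT (34.1%), 13 of 35 in IT against FIT (20.6%) and 27 of 32 in D-3 against D-2 (53.2%). It held for 15 of 33 genes in DP-3 against DP-3 day 1 (45.2%) and 12 of 29 in DP-3 against D-2 (30.9%).

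**Figure D2:**
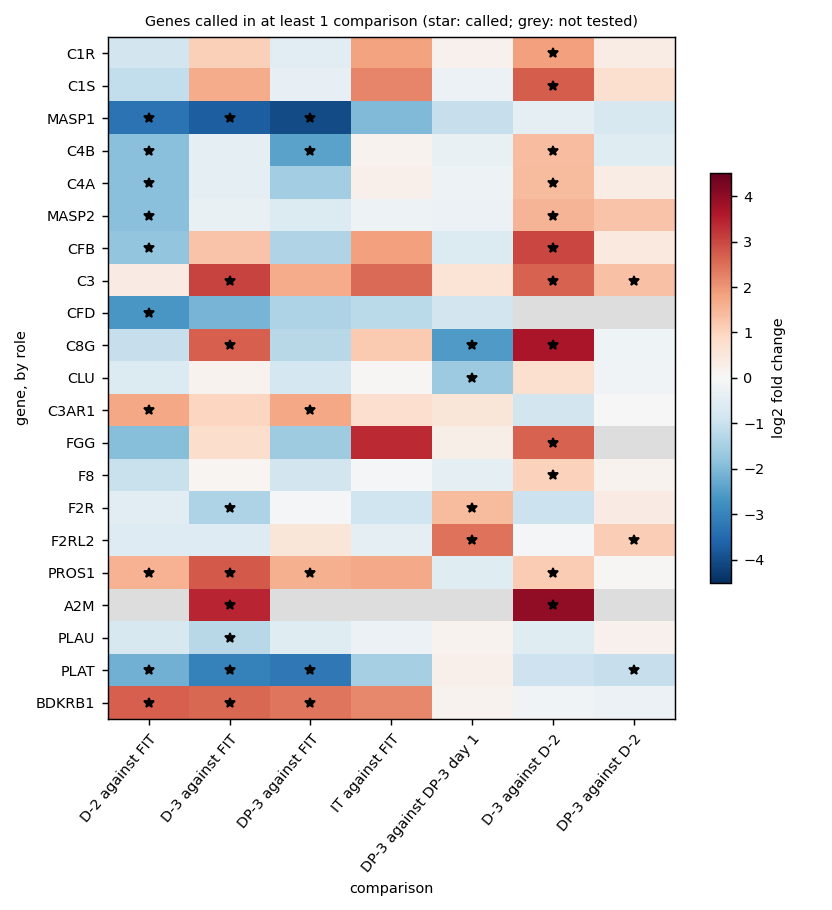
Log2 fold changes of the 21 complement and coagulation genes called in at least 1 of the 7 comparisons, one row per gene and one column per comparison, red where the group named first is higher and blue where it is lower. Stars mark called pairs and grey cells were not tested. The column D-3 against D-2 holds 12 stars, all red, and the column IT against FIT holds none. The stars of A2M and CFD are the 3 calls of genes that reached the minimum for testing in 1 group only.

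The early complement proteases C1R and C1S and the central components C3 and CFB were raised together in D-3. C1R and C1S encode the protease pair that C1q activates, CFB encodes factor B of the alternative pathway, and all 4 were called higher in D-3 than in D-2, by 3.61-fold for C1R, 6.57-fold for C1S, 6.23-fold for C3 and 8.01-fold for CFB. C1R measured 9.27, 6.53 and 3.41 FPKM in FIT, 8.73, 12.2 and 46.4 in IT and 13.2, 10.9 and 17.8 in D-3. The values were 2.79, 2.76 and 4.21 FPKM in D-2, 3.91, 4.39 and 5.03 in DP-3 day 1 and 4.11, 4.32 and 4.18 in DP-3. The log2 fold change of C1R in D-3 against D-2 was 1.85 ± 0.24 (SE), adjusted p = 0.00271, and every D-3 library lay above every library of D-2, DP-3, DP-3 day 1 and FIT. C1S measured 3.43, 3.01 and 0.735 FPKM in FIT, 6.2, 6.55 and 20.3 in IT and 10.7, 4.66 and 8.69 in D-3. D-2 gave 1.04, 1.0 and 0.995 FPKM, DP-3 day 1 2.24, 2.53 and 2.61 and DP-3 1.34, 2.47 and 1.33. C1S differed between D-3 and D-2 by 2.71 ± 0.29 (SE), adjusted p = 0.00192 (log2), without overlap. The 2 genes lie on chromosome 12 on opposite strands, C1S at 6988259 to 7071032 and C1R at 7080214 to 7092493 in the deposited annotation, 9181 bases apart.

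CFB differed most clearly between the flat culture and D-3. CFB measured 18.1, 10.6 and 5.84 FPKM in FIT, 22.1, 23.2 and 76.7 in IT and 28.2, 23.5 and 35.3 in D-3. D-2 gave 2.75, 3.07 and 3.25 FPKM, DP-3 day 1 7.31, 8.15 and 7.39 and DP-3 3.03, 5.69 and 3.75. It was 3.0 ± 0.17 (SE), adjusted p = 0.000592 (log2) in D-3 against D-2, the smallest adjusted p of any pathway gene in any of the 7 comparisons, and it was called lower in D-2 than in FIT (log2 -1.77 ± 0.36 (SE), adjusted p = 0.0119). D-3 and IT lay wholly above FIT for CFB while D-2 and DP-3 lay wholly below it, but D-3 against FIT (1.27 ± 0.37 (SE), adjusted p = 0.0714) and DP-3 against FIT (-1.34 ± 0.39 (SE), adjusted p = 0.070) did not pass the threshold. CFB begins at 31945650 on chromosome 6 and shares its first bases with the end of C2, at 31945672, on the same strand. C2, the classical pathway protease next to it, had group means of only 0.0142 ± 0.0134 FPKM in D-2 to 0.179 ± 0.0357 in IT.

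C3 measured 0.661, 1.95 and 2.39 FPKM in FIT, 2.79, 10.7 and 15.9 in IT and 8.27, 15.4 and 19.5 in D-3. The values were 1.76, 1.92 and 2.12 FPKM in D-2, 3.64, 3.68 and 4.16 in DP-3 day 1 and 3.95, 5.34 and 5.34 in DP-3. C3 is the component on which all complement pathways meet. Among the day 14 cultures of cells it was lowest in D-2, and DP-3 lay between D-2 and D-3 without overlap with either. It was called higher in D-3 than in D-2 (log2 2.64 ± 0.3 (SE), adjusted p = 0.00213), in DP-3 than in D-2 (1.3 ± 0.16 (SE), adjusted p = 0.0178) and in D-3 than in FIT (3.04 ± 0.5 (SE), adjusted p = 0.0129). The call against FIT was lost without D-3 replicate 3 (adjusted p = 0.0601), and that of DP-3 against D-2 without any single D-2 library (adjusted p = 0.0761 to 0.102). DP-3 lay wholly above FIT as well, with a log2 fold change of 1.66 ± 0.43 (SE), adjusted p = 0.0537. On day 14 the printed tissue stood above day 1 by 0.62 ± 0.15 (SE), adjusted p = 0.0265, under the fold threshold.

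**Figure D3:**
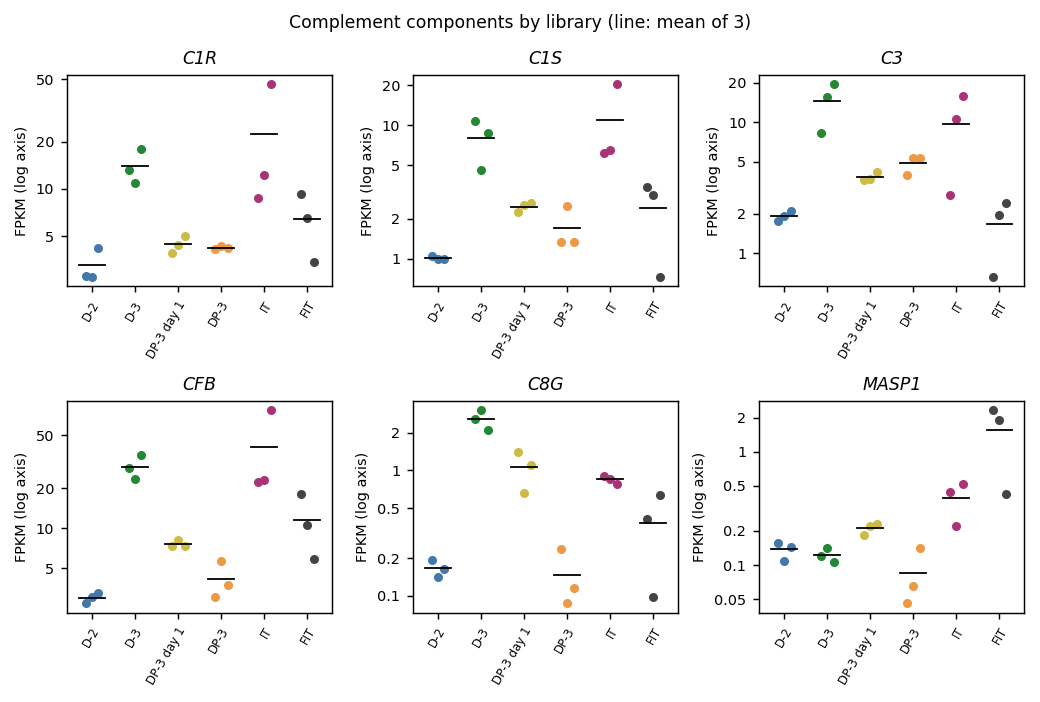
FPKM of C1R, C1S, C3, CFB, C8G and MASP1 in each of the 18 libraries on a logarithmic axis, by group, with a line at the mean of 3. D-3 stands above D-2 without overlap for C1R, C1S, C3, CFB and C8G, IT replicate 3 is the highest library for C1R, C1S and CFB, and MASP1 is highest in FIT.

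IT replicate 3 stood apart in these genes, with 46.4 FPKM of C1R, 20.3 of C1S and 76.7 of CFB. In IT against FIT the log2 fold changes were 1.82 ± 0.66 (SE), adjusted p = 0.321 for C1R, 2.19 ± 0.65 (SE), adjusted p = 0.257 for C1S, 2.54 ± 0.69 (SE), adjusted p = 0.236 for C3 and 1.83 ± 0.58 (SE), adjusted p = 0.274 for CFB. Without IT replicate 3 they were 0.7, 1.39, 2.0 and 0.97, the lowest of all fits that left out a library. IT stayed wholly above FIT for C1S, C3 and CFB, but overlapped it for C1R.

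The macrophage list, read here in cultures set up from Saos-2 cells alone, was also higher in D-3 than in D-2. Its summed level was 61.8 to 86.5 FPKM in D-3 and 43.2 to 45.9 in D-2, with 3 and 2 of 9 genes at a mean of at least 1, and CD68 had means of 70.7 and 42.4. LYZ had means of 1.34 in D-3 and 0.286 in D-2 and CD163 of 0.47 and 0.00243, without overlap for either, while CSF1R went the other way (1.23 and 1.82). TYROBP was at 0 in all 6 libraries, AIF1 and MARCO were at 0 in D-2 and at means of 0.01 and 0.08 in D-3, and CD14 and PTPRC stayed below 0.1 in both. In the other groups the macrophage list summed to 61.3 to 88.9 FPKM in DP-3 day 1 and 47.9 to 117 in DP-3. It summed to 44.1 to 65.1 in IT and 20.1 to 56.3 in FIT. CD68 by itself had means of 72.3 in DP-3 and 73.7 in DP-3 day 1. The part of these genes in the complement differences was not tested.

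The upstream sequences of 4 of the genes raised in D-3 are shown because these members were called together. They are the 250 bases before the start site in RefSeq (GRCh38.p14), which held an entry for 53 of the 66 genes and for 6 of the 12 called higher in D-3 than in D-2. CFB lies on the plus strand at chr6:31945845-31946094, and C1R at chr12:7092446-7092695, FGG at chr4:154612657-154612906 and PROS1 at chr3:93973897-93974146 lie on the minus strand. The RefSeq starts lay 445, 48, 193 and 6107 bases inside the ends of the deposited genes. Capitals mark matches, on either strand, to TATAAA, a core promoter element, or to TTCNNNGAA, the letters that STAT factors are known to bind.
CFB: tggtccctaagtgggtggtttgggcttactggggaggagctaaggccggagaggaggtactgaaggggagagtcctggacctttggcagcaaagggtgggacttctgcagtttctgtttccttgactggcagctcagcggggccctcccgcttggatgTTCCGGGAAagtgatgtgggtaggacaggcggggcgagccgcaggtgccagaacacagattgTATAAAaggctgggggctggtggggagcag
C1R: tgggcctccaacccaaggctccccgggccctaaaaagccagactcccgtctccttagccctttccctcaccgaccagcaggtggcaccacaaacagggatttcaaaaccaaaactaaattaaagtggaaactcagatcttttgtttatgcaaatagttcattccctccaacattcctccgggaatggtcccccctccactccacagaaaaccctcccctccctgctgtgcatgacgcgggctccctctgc
FGG: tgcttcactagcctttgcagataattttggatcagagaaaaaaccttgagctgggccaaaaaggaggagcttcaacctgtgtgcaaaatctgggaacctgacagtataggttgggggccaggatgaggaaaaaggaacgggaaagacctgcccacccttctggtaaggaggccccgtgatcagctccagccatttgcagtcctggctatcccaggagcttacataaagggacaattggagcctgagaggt
PROS1: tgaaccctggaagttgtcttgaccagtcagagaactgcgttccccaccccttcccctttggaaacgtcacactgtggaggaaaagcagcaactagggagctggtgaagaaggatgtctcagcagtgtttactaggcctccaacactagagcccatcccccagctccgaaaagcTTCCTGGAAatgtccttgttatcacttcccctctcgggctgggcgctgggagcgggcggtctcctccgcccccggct
CFB held both patterns, TTCCGGGAA at -92 to -84 from the start and TATAAA at -30 to -25. PROS1 held TTCCTGGAA at -77 to -69, MASP2 held TTCCCAGAA at -86 to -78, and C1R, FGG and F8 held neither in this window. Among all 35116 windows of this length, 6.57% held TTCNNNGAA and 10.7% TATAAA, while 13 and 5 of the 53 pathway genes with an entry did (24.5% and 9.43%). Of the 13 genes with TTCNNNGAA, CD59, CFB and PROS1 reached a mean of 1 FPKM in a group and the others, such as F9, F10, FGA and MBL2, did not.

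The lectin pathway and C4 genes were low, and MASP1, MASP2, C4A and C4B were all called lower in the flat culture D-2 than in the fresh tumor. MASP1 measured 2.33, 1.9 and 0.423 FPKM in FIT, 0.446, 0.222 and 0.517 in IT and 0.121, 0.142 and 0.106 in D-3. The values were 0.158, 0.11 and 0.144 FPKM in D-2, 0.185, 0.219 and 0.232 in DP-3 day 1 and 0.0462, 0.0658 and 0.142 in DP-3. MASP1 encodes a protease of the lectin pathway and was lower than in FIT in DP-3 (log2 -4.03 ± 0.71 (SE), adjusted p = 0.0223), D-3 (-3.71 ± 0.59 (SE), adjusted p = 0.0119) and D-2 (-3.33 ± 0.59 (SE), adjusted p = 0.00755). FIT replicate 3, the shallowest library, was the lowest of its group, yet above all libraries of these cultures. The D-3 call was lost without D-3 replicate 1 or 3 (adjusted p up to 0.070) and the DP-3 call whenever 1 library other than FIT replicate 3 was left out (up to 0.0774). Within DP-3 only replicate 3 reached the minimum for testing, so that call also leans on the choice of tested genes. IT overlapped FIT in MASP1, at -1.97 ± 0.6 (SE), adjusted p = 0.264.

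MASP2, the protease that cleaves C4 and C2, stayed below 1 FPKM in every library. MASP2 measured 0.796, 0.306 and 0.30 FPKM in FIT, 0.809, 0.278 and 0.12 in IT and 0.296, 0.607 and 0.26 in D-3. D-2 gave 0.123, 0.103 and 0.109 FPKM, DP-3 day 1 0.32, 0.414 and 0.474 and DP-3 0.229, 0.295 and 0.306. MASP2 was lower in D-2 than in FIT (log2 -1.89 ± 0.47 (SE), adjusted p = 0.0225) and higher in D-3 than in D-2 (1.54 ± 0.43 (SE), adjusted p = 0.0307). Both calls were marginal, since the first was lost without any D-2 library or FIT replicate 1 (adjusted p up to 0.0768), and the second without any D-2 library or D-3 replicate 2 (up to 0.091).

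C4A and C4B are near-identical copies side by side on chromosome 6, so the split of reads between them is uncertain and they are best read together. C4A measured 0.706, 0.718 and 0.479 FPKM in FIT, 0.782, 0.598 and 0.855 in IT and 0.565, 0.40 and 0.521 in D-3. The values were 0.0923, 0.184 and 0.173 FPKM in D-2, 0.377, 0.216 and 0.226 in DP-3 day 1 and 0.116, 0.30 and 0.168 in DP-3. C4B measured 0.798, 0.775 and 0.467 FPKM in FIT, 0.858, 0.547 and 0.917 in IT and 0.531, 0.486 and 0.576 in D-3. D-2 gave 0.115, 0.165 and 0.218 FPKM, DP-3 day 1 0.285, 0.163 and 0.0739 and DP-3 0.109, 0.137 and 0.0948. Both copies were lowest by mean in D-2 and DP-3 and highest in IT and FIT. Relative to FIT, D-2 differed by -1.9 ± 0.35 (SE), adjusted p = 0.00873 (log2) for C4A and -1.86 ± 0.35 (SE), adjusted p = 0.00898 for C4B. DP-3 differed from FIT by -2.41 ± 0.35 (SE), adjusted p = 0.0145 for C4B, a call lost without any DP-3 library or FIT replicate 1 (adjusted p up to 0.0661), while C4A reached -1.56 ± 0.41 (SE), adjusted p = 0.0542. D-3 stood above D-2 by 1.43 ± 0.34 (SE), adjusted p = 0.0173 for C4A and 1.39 ± 0.31 (SE), adjusted p = 0.0137 for C4B.

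Factor D (CFD), the protease that activates factor B, was near the detection limit of 12 estimated counts, which stand for about 3 read pairs. CFD measured 0.367, 0.204 and 0.502 FPKM in FIT, 0.266, 0.124 and 0.0538 in IT and 0.135, 0.109 and 0 in D-3. The values were 0.0251, 0.0699 and 0.0487 FPKM in D-2, 0.201, 0.344 and 0.223 in DP-3 day 1 and 0.0428, 0.151 and 0.168 in DP-3. All 3 D-2 libraries lay between 3 and 8 counts. C1QA, C1QB and C1QC, which encode the recognition protein C1q, had means of at most 0.119 FPKM in every group, and MBL2 below 0.1.

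C8G was the only terminal component above 1 FPKM in a group. It encodes the small chain of C8, a lipocalin. C8G measured 0.413, 0.0983 and 0.637 FPKM in FIT, 0.903, 0.857 and 0.786 in IT and 2.58, 3.01 and 2.09 in D-3. The values were 0.194, 0.141 and 0.162 FPKM in D-2, 1.41, 0.665 and 1.1 in DP-3 day 1 and 0.237, 0.0877 and 0.115 in DP-3. C8G was raised in D-3 against D-2 by 12.8-fold (log2 3.67 ± 0.34 (SE), adjusted p = 0.00142), and the D-3 libraries were the highest 3 of all 18. In the printed tissue C8G was lower on day 14 than on day 1, at -2.54 ± 0.53 (SE), adjusted p = 0.0168 (log2), and D-3 stood above FIT by 2.68 ± 0.64 (SE), adjusted p = 0.0407. The day 1 call was lost without DP-3 day 1 replicate 1 or 3 (adjusted p up to 0.0625), and that against FIT in every fit without 1 library but that without FIT replicate 3 (up to 0.123). The other chains C8A and C8B, with C6 and C9, stayed below 0.1 FPKM, while C5 had means of 0.321 to 0.601 and C7 of 0.0193 to 0.164.

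The membrane regulators moved little. CD59 had means of 27.9 to 40.6 FPKM, CD55, which speeds convertase decay, 7.59 to 13.7, and CD46, a cofactor for C3b cleavage, 4.74 to 7.95, and none of the 3 was called in any comparison. CD59 was lower in D-3 than in D-2, at -0.79 ± 0.1 (SE), adjusted p = 0.00242 (log2), a fold of 1.73, under the fold threshold. CLU measured 31, 9.69 and 25.6 FPKM in FIT, 21, 16 and 30.0 in IT and 23.5, 24.2 and 27.7 in D-3. D-2 gave 13.2, 11.4 and 13.5 FPKM, DP-3 day 1 47.9, 35 and 46.6 and DP-3 9.4, 12.3 and 13.1. CLU fell from day 1 to day 14 in the printed tissue by 3.07-fold (log2 -1.62 ± 0.18 (SE), adjusted p = 0.00259), with all 3 day 1 libraries above every other library of the series. In D-3 against D-2 CLU differed by 0.73 ± 0.12 (SE), adjusted p = 0.00459 (log2), without overlap but under the fold threshold. Vitronectin (VTN), a fluid-phase regulator, was low, with means up to 0.316 FPKM. VSIG4, a macrophage complement receptor, was at 0 in all libraries but DP-3 replicate 1 (0.0372) and DP-3 replicate 3 (0.542).

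The complement receptor C3AR1 was higher in 2 cultures than in the fresh tumor. C3AR1 measured 0.595, 0.445 and 0.966 FPKM in FIT, 0.626, 2.09 and 0.601 in IT and 0.948, 2.21 and 0.828 in D-3. The values were 2.38, 1.9 and 1.72 FPKM in D-2, 1.58, 1.86 and 1.62 in DP-3 day 1 and 1.5, 2.28 and 2.32 in DP-3. C3AR1, the receptor for C3a, stood above FIT in D-2 by 1.75 ± 0.32 (SE), adjusted p = 0.00845 (log2) and in DP-3 by 1.75 ± 0.37 (SE), adjusted p = 0.033. The DP-3 call was lost in every fit without 1 library except that without FIT replicate 3 (adjusted p up to 0.111). In D-3 and IT 1 library each lay above 2 FPKM and the others under 1, and neither group was called against FIT. C5AR1, the receptor for C5a, had means of 0.303 to 0.868 FPKM and was not called, with -1.39 ± 0.45 (SE), adjusted p = 0.0539 (log2) in D-2 against FIT.

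On the clotting side, the initiator tissue factor (F3) was expressed without its plasma partner F7. F3 had means of 2.09 ± 0.136 FPKM in FIT, 0.968 ± 0.518 in IT, 1.67 ± 0.316 in D-3, 1.26 ± 0.121 in DP-3 day 1, 1.37 ± 0.244 in DP-3 and 2.59 ± 0.0848 in D-2. D-2 lay wholly above FIT and IT and DP-3 wholly below it, but no F3 comparison was called. The only F3 difference with an adjusted p under 0.05 was D-3 against D-2, at -0.88 ± 0.2 (SE), adjusted p = 0.0151 (log2). Factor XII (F12), the contact factor, was even, with means of 1.17 to 2.04 FPKM and no call.

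F8, the cofactor that haemophilia A lacks, was near 1 FPKM. F8 measured 1.25, 1.19 and 0.573 FPKM in FIT, 0.811, 1.21 and 0.915 in IT and 1.09, 1.0 and 1.29 in D-3. D-2 gave 0.452, 0.398 and 0.519 FPKM, DP-3 day 1 0.803, 0.945 and 0.786 and DP-3 0.688, 0.47 and 0.411. It was higher in D-3 than in D-2 by 2.07-fold (log2 1.05 ± 0.19 (SE), adjusted p = 0.00666), and leaving out D-2 replicate 2 or D-3 replicate 3 brought the fold below 2 with adjusted p still 0.0245 to 0.0307. The gene of its carrier protein, VWF, had means of at most 0.12 FPKM.

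The fibrinogen chain genes FGA, FGB and FGG, which encode the precursor of fibrin and lie together on chromosome 4, were highest in IT. FGG measured 0.0797, 0.262 and 0.882 FPKM in FIT, 3.93, 3.49 and 4.66 in IT and 0.889, 0.597 and 0.608 in D-3. The values were 0.116, 0.0937 and 0.0662 FPKM in D-2, 0.136, 0.108 and 0.0994 in DP-3 day 1 and 0, 0.327 and 0.0365 in DP-3. All 3 IT libraries of FGG lay above every other library of the series. FGA was 0.155 to 0.375 FPKM in IT, against at most 0.134 in D-3 and at most 0.172 in FIT. FGB was 0.293 to 0.968 in IT and at most 0.225 in any other library, and it was at 0 in all D-2 and DP-3 libraries. IT against FIT gave 3.34 ± 0.77 (SE), adjusted p = 0.208 (log2) for FGG, 2.63 ± 1.27 (SE), adjusted p = 0.443 for FGB and 1.71 ± 1.21 (SE), adjusted p = 0.62 for FGA, none called. FGG was called in D-3 against D-2 (2.65 ± 0.38 (SE), adjusted p = 0.00347). Within D-2 only replicate 1 reached the minimum for testing, so this call also leans on the choice of tested genes. The hepatocyte genes ALB, APOB and TTR were at 0 in every IT and FIT library, and the hepatocyte list summed to 0.178 to 1.25 FPKM in IT and 0.432 to 0.557 in FIT. Of the rest of the list, APOA1 had means of 0.342 in IT and 0.165 in FIT and SERPINA1 of 0.329 and 0.311. Transferrin (TF) had means of 0.0096 and 0.00663.

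**Figure D4:**
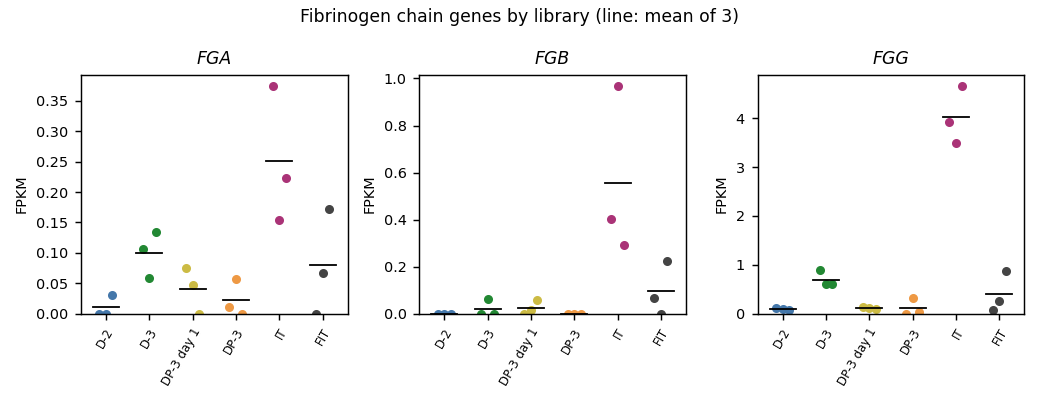
FPKM of the fibrinogen chain genes FGA, FGB and FGG in each of the 18 libraries on linear axes from 0, by group, with a line at the mean of 3. The 3 IT libraries of FGG lie between 3.49 and 4.66 FPKM, above all other libraries, and the FGA and FGB axes end far lower.

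The thrombin receptor genes F2R and F2RL2 rose in the printed tissue from day 1 to day 14. F2R encodes PAR1, the main thrombin receptor, and F2RL2 encodes PAR3, and both lie on chromosome 5. F2R measured 48, 49.3 and 40.4 FPKM in FIT, 28.8, 29.3 and 16.3 in IT and 17, 18.7 and 18.7 in D-3. The values were 29.4, 30.7 and 29.8 FPKM in D-2, 17.6, 18 and 18.1 in DP-3 day 1 and 38.7, 34.7 and 45.7 in DP-3. F2R was higher in DP-3 than in DP-3 day 1 by 2.69-fold (log2 1.43 ± 0.14 (SE), adjusted p = 0.00197) and lower in D-3 than in FIT, at -1.4 ± 0.16 (SE), adjusted p = 0.00369. D-3 against D-2 gave -0.98 ± 0.1 (SE), adjusted p = 0.00157 for F2R, at a fold of 1.97, and D-2 against FIT -0.46 ± 0.11 (SE), adjusted p = 0.0213, both under the fold threshold. IT replicate 3 was the lowest library of all for F2R. F2RL2 measured 4.68, 5.36 and 3.62 FPKM in FIT, 2.78, 4.88 and 2.78 in IT and 2.73, 4.28 and 2.59 in D-3. D-2 gave 2.86, 2.51 and 2.9 FPKM, DP-3 day 1 1.57, 1.42 and 1.08 and DP-3 5.07, 5.24 and 7.86. F2RL2 rose 5.4-fold from day 1 to day 14 (log2 2.43 ± 0.26 (SE), adjusted p = 0.00235), and DP-3 stood above D-2 by 1.11 ± 0.21 (SE), adjusted p = 0.0491. That last call was lost in all 6 fits without 1 library, by the adjusted p (up to 0.18) or by a fold under 2.

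Among the anticoagulants, PROS1 was lowest in the fresh tumor. PROS1 encodes protein S, the cofactor of activated protein C. PROS1 measured 0.233, 0.188 and 0.331 FPKM in FIT, 0.914, 0.599 and 0.932 in IT and 2.05, 1.36 and 1.86 in D-3. The values were 0.737, 0.738 and 0.526 FPKM in D-2, 1.47, 0.897 and 1.38 in DP-3 day 1 and 0.47, 0.993 and 0.666 in DP-3. Every library of the cultures lay above every FIT library. PROS1 was called above FIT in D-3 (log2 2.74 ± 0.35 (SE), adjusted p = 0.00543), D-2 (1.57 ± 0.32 (SE), adjusted p = 0.0115) and DP-3 (1.62 ± 0.4 (SE), adjusted p = 0.0484), and in D-3 above D-2 (1.13 ± 0.24 (SE), adjusted p = 0.0124). The DP-3 call was lost in each fit without 1 library but that without FIT replicate 3 (adjusted p up to 0.144), and D-3 against D-2 fell below the fold threshold without D-2 replicate 3 (adjusted p = 0.0412). PROCR was not called in any comparison and all its folds were under 2, with log2 differences from -0.25 in D-3 against D-2 to 0.56 in DP-3 against DP-3 day 1. TFPI, which blocks tissue factor, had means of 2.68 to 4.46 FPKM and was not called either.

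A2M, a broad protease inhibitor, was near the limit of detection in the flat culture and the tumor. A2M measured 0.015, 0.015 and 0 FPKM in FIT, 0.0741, 0 and 0.112 in IT and 0.135, 0.163 and 0.138 in D-3. D-2 gave 0.00648, 0.00141 and 0.0102 FPKM, DP-3 day 1 0.10, 0.109 and 0.0801 and DP-3 0.0138, 0.0672 and 0. The D-2 libraries held 1 to 8 estimated counts of A2M and the FIT libraries 0 to 9.

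Tissue plasminogen activator (PLAT) was far higher in the fresh tumor than in any culture. PLAT measured 17, 16.2 and 24.7 FPKM in FIT, 11.6, 3.09 and 5.71 in IT and 2.13, 1.79 and 3.28 in D-3. The values were 3.96, 3.74 and 3.79 FPKM in D-2, 1.76, 2.17 and 1.94 in DP-3 day 1 and 1.87, 2.07 and 1.8 in DP-3. Every FIT library lay above every other library of the series, and DP-3, D-3 and D-2 stood 9.22-fold, 8.31-fold and 4.51-fold below FIT. The log2 fold changes were -3.2 ± 0.19 (SE), adjusted p = 0.00102 for DP-3, -3.06 ± 0.27 (SE), adjusted p = 0.00165 for D-3 and -2.17 ± 0.17 (SE), adjusted p = 0.00145 for D-2, and IT gave -1.51 ± 0.43 (SE), adjusted p = 0.244. DP-3 was also below D-2 (-1.03 ± 0.1 (SE), adjusted p = 0.012), a call lost without any single D-2 library or DP-3 replicate 1 (up to 0.0794). DP-3 and DP-3 day 1 overlapped in PLAT.

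The fibroblast list was highest in FIT too, as PLAT and MASP1 were. Its 6 genes summed to 21.4 to 29.4 FPKM in FIT, 10.4 to 18.5 in IT, 8.89 to 9.17 in DP-3 day 1, 12.7 to 15.4 in DP-3, 14.1 to 15.4 in D-2 and 5.97 to 6.36 in D-3. PDGFRA carried most of it (mean 21.7 in FIT), and 3 of 6 genes reached a mean of 1 in FIT and 1 or 2 in the other groups. COL3A1 and DPT spread widely in FIT, from 0 to 3.94 and from 0.322 to 4.26 FPKM. LUM went the other way, with a mean of 0.302 in FIT and 0.337 to 0.922 in the other groups, PI16 was highest in DP-3 day 1 (0.225), and DCN had a mean of at most 0.0514 in any group.

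The endothelial genes PECAM1 and CDH5 were higher in FIT and IT than in any other group. PECAM1 measured 2.93 to 4.46 FPKM in FIT and 3.29 to 5.01 in IT, against at most 1.8 in any other library, and CDH5 0.343 to 1.11 and 0.32 to 1.34 against at most 0.149. TEK had means of 0.37 in FIT and 0.31 in IT and at most 0.101 in the others, and ESAM of 2.4 in FIT and 0.701 to 1.86 elsewhere. TIE1 did not follow this order (35.1 in FIT and 43.6 in DP-3 day 1), EGFL7 was lowest by mean in FIT (1.09), and KDR and CLDN5 had means under 0.1 in every group. The part of the fibroblast and endothelial markers in the PLAT and MASP1 differences was not tested.

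Urokinase (PLAU) followed PLAT only in part. PLAU measured 105, 133 and 148 FPKM in FIT, 157, 105 and 60.0 in IT and 46.4, 62.9 and 61.1 in D-3. D-2 gave 74.9, 69.7 and 66 FPKM, DP-3 day 1 85.8, 86.4 and 94.5 and DP-3 84.1, 93.9 and 69.2. D-3 was lower than FIT (log2 -1.24 ± 0.2 (SE), adjusted p = 0.0115), a call lost without D-3 replicate 1 or 3 (adjusted p up to 0.0601), and D-2 against FIT gave -0.73 ± 0.15 (SE), adjusted p = 0.0112, under the fold threshold. The IT libraries spread more widely than those of any other group, with replicate 3 lowest. PLAUR, the urokinase receptor, had means of 14.2 to 20.2 FPKM and was not called. Its differences were -0.66 (log2) in D-3 against D-2, 0.57 in D-2 against FIT, 0.63 in DP-3 against FIT and 0.4 in DP-3 against DP-3 day 1, with adjusted p of 0.0284, 0.0309, 0.0482 and 0.0113, all under the fold threshold.

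**Figure D5:**
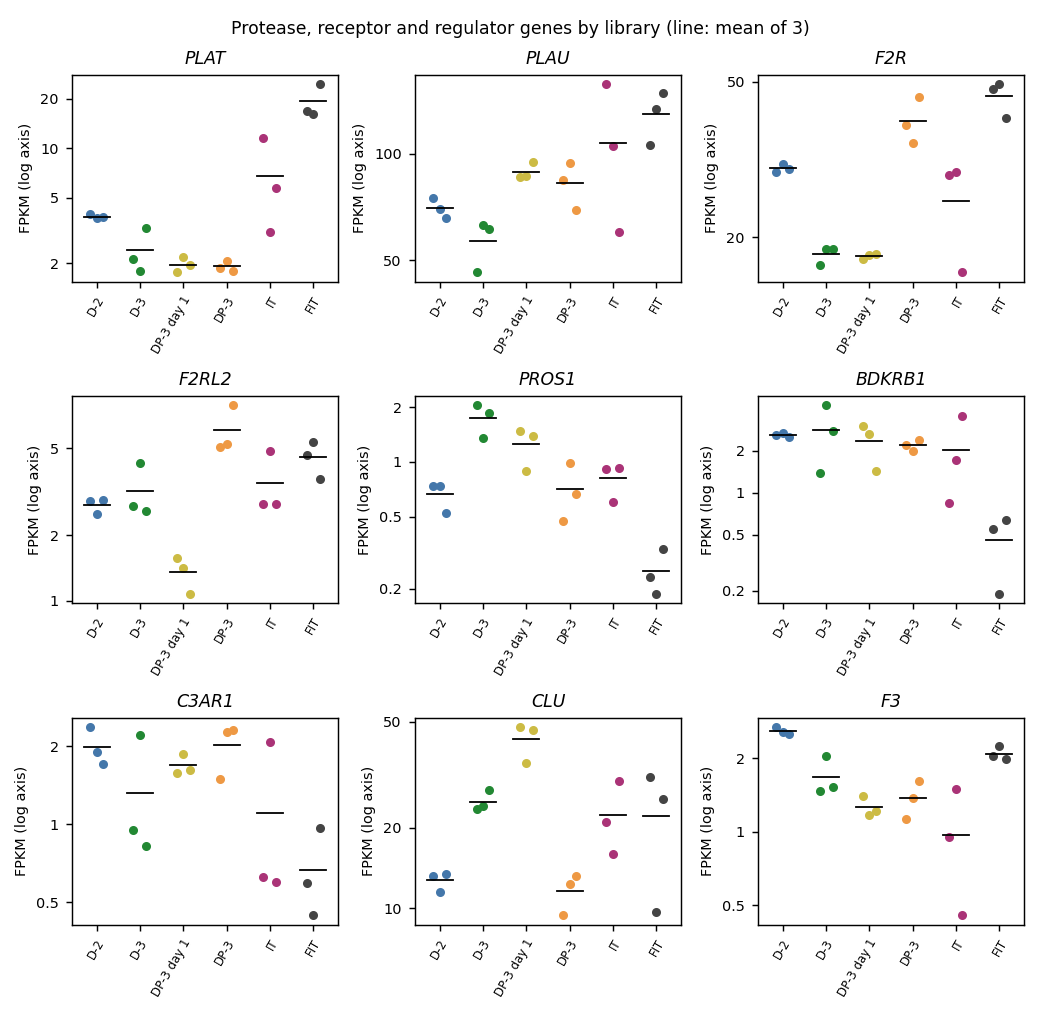
FPKM of PLAT, PLAU, F2R, F2RL2, PROS1, BDKRB1, C3AR1, CLU and F3 in each of the 18 libraries on logarithmic axes, by group, with a line at the mean of 3. PLAT is highest in the 3 FIT libraries and PROS1 and BDKRB1 are lowest there, while F2R and F2RL2 are higher in DP-3 than in DP-3 day 1 and CLU is lower.

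The bradykinin receptor BDKRB1 was lowest in the fresh tumor. BDKRB1 measured 0.548, 0.19 and 0.636 FPKM in FIT, 0.841, 1.72 and 3.56 in IT and 1.4, 4.23 and 2.78 in D-3. The values were 2.62, 2.7 and 2.51 FPKM in D-2, 3.01, 2.62 and 1.44 in DP-3 day 1 and 2.21, 2.01 and 2.4 in DP-3. BDKRB1, the inducible receptor for kinin fragments, lay in each library of the 5 cultured groups above every FIT library. Against FIT it was called in DP-3 (log2 2.41 ± 0.45 (SE), adjusted p = 0.0265), D-3 (2.57 ± 0.57 (SE), adjusted p = 0.0328) and D-2 (2.68 ± 0.43 (SE), adjusted p = 0.00538). The D-3 call was lost in every fit without 1 library but that without FIT replicate 3 (adjusted p up to 0.11), and the DP-3 call without any DP-3 library or FIT replicate 1 (up to 0.0832). BDKRB2, the constitutive bradykinin receptor beside it on chromosome 14, had means of 1.02 to 2.26 FPKM and was not called, and the ligand precursor KNG1 and the kallikrein KLKB1 were below 0.1 throughout.

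In D-3 against D-2, all the genes called were higher, but 7 others were lower at an adjusted p under 0.05 and a fold under 2, where 12.4% of all genes tested were of this kind. They were CD59, F2R, F3, PLAT, PLAU, PLAUR and TFPI, with log2 differences of -0.79, -0.98, -0.88, -0.92, -0.56, -0.66 and -0.55. In all of them the D-3 libraries lay wholly below those of D-2. The 12 higher genes were mostly complement components (CFB, C8G, C1S, C3, C1R, C4A, C4B and MASP2), with FGG, F8, PROS1 and A2M. The 11 other than A2M were also called by DESeq2, by limma on log2(FPKM + 0.1) and in one fit of all 18 libraries. Limma on log2(FPKM + 1) lost C4A, C4B, F8, FGG, MASP2 and PROS1 of them. MASP2 was also lost with no filter and with the replicate block.

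In IT against FIT, edgeR called no gene of any kind in its own 6 libraries with the minimum of 0.1 FPKM, and 53 genes without it (0.144%), none of them of the pathway. This test was unpaired, and a block on replicate number also gave 0 calls (0% of all genes), though such numbers need not mark animals. At an unadjusted p below 0.05 stood 12 of 35 pathway genes, where 12.7% of all genes did, and their adjusted p ranged from 0.208 to 0.37. DESeq2 called 8 of them (3.12% of all genes), namely BDKRB1, C1S, C3, CFB, FGG, MASP1, PLAT and PROS1, and one fit of all 18 libraries called 8 (2.61%), with C1R in place of FGG, while limma called none on either scale (0.0566% of all genes with a pseudocount of 0.1). Of the 13 genes without overlap, BDKRB1, C1S, C2, C3, C8G, CD46, CFB, FGB, FGG and PROS1 were higher in IT, where 11.1% of all genes were, and F2R, F3 and PLAT were lower (9.49%). CD46 had the smallest of these differences, 0.56 ± 0.14 (SE), adjusted p = 0.216 (log2).

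Of 21 partner genes outside the pathway annotation, 17 or 18 were tested in each comparison. In D-3 against D-2, 2 of 18 were called higher and 5 lower, where 14.6% and 3.95% of all genes were. Of these ADAMTS13 and SUSD4 had reached 0.1 FPKM only in the group where they were higher, and their levels alone are given. ADAMTS13, which cleaves von Willebrand factor, measured 0.748 to 1.18 FPKM in D-3, 0.0222 to 0.054 in D-2 and 0.308 to 0.614 in FIT. SUSD4, a complement inhibitor, measured 0.0441 to 0.0618 in D-3 and 0.141 to 0.195 in D-2. C1RL, a relative of C1R, was higher in D-3 than in D-2 (1.23 ± 0.16 (SE), adjusted p = 0.0027, log2). The other lower ones were C1QBP at -1.34, the protease-activated receptor F2RL1 at -1.81, MCFD2, a cargo factor for clotting factors, at -1.04, and S100A10, a plasminogen binding partner, at -1.39. ADAMTS13 was the only partner called in DP-3 against FIT (-2.06 ± 0.52 (SE), adjusted p = 0.0499) and in DP-3 against DP-3 day 1 (-3.0 ± 0.39 (SE), adjusted p = 0.00359), lower in both, where 3.16% and 5.76% of all genes were called lower. Its DP-3 libraries lay at 0.0454 to 0.113 FPKM, near the minimum for testing. In D-2 against FIT, C1QBP (1.24) and VKORC1L1, a vitamin K enzyme (1.12), were higher among 18 tested, where 3.83% of all genes were, and ADAMTS13, which reached the minimum only in FIT there, was the 1 called lower. No partner was called in D-3 against FIT, IT against FIT or DP-3 against D-2.

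Across the comparisons, 44 pairs of gene and comparison were called, 41 of them for genes that reached the minimum in at least 1 library of both groups. Where only 1 library of the lower group did, as for MASP1 in DP-3 against FIT and FGG in D-3 against D-2, the call was kept. The libraries of the higher group alone met the filter there, so both calls also lean on the choice of tested genes. Of these 41, 23 were called again in all 6 fits without 1 library, and none changed direction in any fit tried. BDKRB1, MASP1, PLAT and PROS1 were called against FIT in each of DP-3, D-3 and D-2, which share their FIT libraries, with BDKRB1 and PROS1 higher and MASP1 and PLAT lower in each. Among these genes only PLAT kept its call in all 6 fits without 1 library in each of these comparisons. The share of all genes called in each of these comparisons together was not computed.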

How the data were processed

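RNA levels of 66 complement and coagulation genes were analysed in 18 libraries of 6 groups. Per the labels and methods, poly(A) RNA of Saos-2 cells was made into strand-marked libraries and read in pairs, and the authors used Cutadapt 1.9, HISAT2 2.0.4 and StringTie 1.3.4d, as their processing notes list them. The genome build is not given in the sources used here. The authors deposited FPKM values and estimated counts for each gene and library, and how the estimated counts were made is not given in the sources used here. The counts are whole numbers, and multiples of 4 were 35.0% of the 212148 low values between 1 and 40, so that about 4 were taken to stand for a read pair. All 66 deposited gene positions overlapped the gene of that name in GENCODE 29, and 12 had the same ends. No column of per-sample values was left unused (0 of them).

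The members and lists were chosen with earlier results of these data known. Estimated counts were tested as deposited with edgeR 4.0.16 in R 4.3.3 (TMM scaling, estimateDisp, glmQLFit, glmQLFTest), each comparison on its own 6 libraries, over all genes that reached 0.1 FPKM in 3 or more of them. A call needed an adjusted p below 0.05 (Benjamini-Hochberg) and a fold of at least 2, the thresholds of the study, with no replicate block. Fold changes are those of the count model, which need not equal ratios of FPKM. A called gene at 12 counts or fewer in every library of a group, 0.152 to 0.506 CPM, is given in the text by its levels, without a fold. Biological coefficients of variation were 28.3% to 43.7%. Genes were named if they had a mean of at least 1 FPKM in a group or a call, and called genes have each library's value. Alternatives were DESeq2 1.42.0, median-of-ratios scaling, no filter, a minimum of 1 FPKM, one fit of all 18 libraries, limma 3.58.1 on log2(FPKM + 0.1) and log2(FPKM + 1), a replicate block, and leaving out each library. No pair of libraries held identical counts. Libraries of a group differed by a median of 0.0956 to 0.115 (log2) in D-2 and 0.102 to 0.104 in DP-3 day 1. In the other groups this was 0.143 to 0.343, over genes above 1 FPKM in every library. Promoters are from RefSeq (GRCh38.p14), and protein sequences were not used here. The values of 1 of the 66 genes and of 1 marker gene are not reported here. Figures were drawn with matplotlib 3.10.9.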

Additional observations from a re-analysis of the deposited data

Results flagged for a closer look

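CFB, the gene of factor B, was the clearest case of cultures on opposite sides of the fresh tumor, with all libraries of D-3 and IT above all of FIT and all of D-2 and DP-3 below. The difference between the log2 fold changes against FIT was 3.04 between D-3 and D-2, and the direct comparison of these groups gave 3.00 (adjusted p = 0.000592, edgeR). For D-3 and DP-3 it was 2.61, for IT and D-2 3.60, and for IT and DP-3 3.17, and these 3 differences were not tested. IT replicate 3 was the highest library for CFB, and leaving it out brought the log2 fold change of IT against FIT from 1.83 to 0.97.

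F3, the gene of tissue factor, was above FIT in all D-2 libraries and below it in all DP-3 and IT libraries. The log2 fold changes against FIT differed by 0.936 between D-2 and DP-3, and the direct comparison of DP-3 with D-2 gave -0.94 (adjusted p = 0.0614, edgeR), which did not pass the threshold. Between D-2 and IT they differed by 1.57, and this difference was not tested.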

How the results depend on the processing

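Across the 7 counts of called genes, 40 of 56 values under the 8 alternatives stayed within 1.5 times. With a minimum of 1 FPKM the count was 4 in D-2 against FIT, 3 in DP-3 against FIT and 7 in D-3 against D-2, where fewer genes were tested. Limma on log2(FPKM + 1) gave 3 in DP-3 against FIT, 4 in D-2 against FIT, 5 in D-3 against D-2 and 0 in DP-3 against D-2, and limma on log2(FPKM + 0.1) gave 3 in DP-3 against FIT and 1 in DP-3 against D-2. DESeq2 gave 8 in IT against FIT and 5 in DP-3 against D-2, one fit of all 18 libraries 8 and 0, and no filter 7 in DP-3 against DP-3 day 1. For these the cause was not tested. Apart from IT against FIT, whose shares are given above, these counts stand without the share of all genes called under each setting. The same holds for the replicate block and the left-out libraries below. A smaller or larger count therefore cannot be told from a change over all genes. Without a filter C2, CR1 and VWF were gained in DP-3 against DP-3 day 1, where the median of all genes was then -1.1 (log2). The replicate block gave 1 in DP-3 against FIT, 0 in DP-3 against D-2, 9 in D-2 against FIT, 6 in D-3 against FIT, 0 in IT against FIT, 4 in DP-3 against DP-3 day 1 and 11 in D-3 against D-2. Same-numbered libraries did not deviate together (r from -0.045 to 0.034). These correlations cannot show whether libraries share an animal or a culture, which the records do not give. Leaving out each library gave 8 to 13 calls in D-2 against FIT, 3 to 10 in D-3 against FIT (3 without D-3 replicate 3 and 4 without its replicate 1), 1 to 10 in DP-3 against FIT, 0 in IT against FIT, 3 to 5 in DP-3 against DP-3 day 1, 10 to 12 in D-3 against D-2 and 0 to 3 in DP-3 against D-2. Both counts of 10 were without FIT replicate 3, the shallowest. No called pair changed direction under any alternative, and 18 of 41, the 3 that reached the minimum in 1 group left out, were called under every other setting that tested them. Genes at 12 counts or fewer throughout a group have only a lower bound for a fold at this depth.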
